A study of Mus musculus with 20 samples.

Results

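The cells described here were Cthrc1 Lrrc15 fibroblasts of mouse interscapular brown adipose tissue (iBAT), taken from single-cell RNA-seq of stromal vascular cells that lack immune lineage markers (Lin-). They were chosen by their own counts. Among kept cells, stromal cells had a summed count of at least 5 for Pdgfra, Col1a1 and Dcn and less than 1 for Pecam1, Cdh5 and Ptprc. Cthrc1 Lrrc15 cells were stromal cells that also had an Lrrc15 count of at least 0.5 and a summed count of at least 4 for the markers Cthrc1, Lrrc15, Fbn2 and Crabp1. This gave 723 cells, or 1.87% of 38611 stromal cells and 1.19% of 60538 kept Lin- cells. Cycling cells were included.

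Lin+ and Lin- cells of 10 pools, each of 3 to 4 mice aged 8 to 14 weeks, were sequenced as 20 libraries. Male C57 mice were housed at 24 °C (RT), at 6 °C over 4 days (COLD), or at 24 °C while receiving CL316,243 (CL), an agonist of the beta-3 adrenergic receptor, at 0.75 nmol per hour over 4 days. Each of these groups had 2 experiments. CL came from an osmotic pump, and the study describes no pump for the other groups, so pump and drug cannot be told apart. Female mice of an Adrb1 line, all Adrb1 fl/fl and all given tamoxifen, were kept at RT or in the cold, with 1 experiment per group. KO mice carried 1 copy of Pdgfra-CreER (the CreERT2 allele in the study's methods), which deletes Adrb1 in cells with an active Pdgfra promoter, and WT mice carried none. In that line RT libraries were made with version 3 of the kit and COLD libraries with version 2, on other days, so that treatment, kit and day cannot be told apart. The numbers of the C57 pools mark the replicate experiment, whose libraries the study merged.

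Activated fibroblasts are stromal cells that turn from tissue maintenance to the secretion and remodelling of matrix. Cthrc1 encodes a secreted glycoprotein found in fibroblasts of healing and fibrotic tissue, and Lrrc15 a leucine-rich repeat membrane protein known from fibroblasts of wounds and tumours and from cells given TGF-beta. Fbn2 encodes fibrillin-2, a microfibril protein, and Crabp1 a cytoplasmic protein that binds retinoic acid. In the GRCm38 (mm10) assembly with GENCODE M21 annotation, Cthrc1 (ENSMUSG00000054196.7) lies on the plus strand of chromosome 15 from 39076932 to 39087121, and Lrrc15 (ENSMUSG00000052316.9) on the minus strand of chromosome 16 from 30269302 to 30283256.

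The 10 Lin- libraries held 2358 to 9829 kept cells and 7591170 to 31082800 summed counts, with medians of 1326 to 4053 counts per cell. The RT 2 library stood apart, with 72.0% of its barcodes at or above 10% mitochondrial counts against at most 41.3% in the other Lin- libraries, and with Col1a1 in only 39.0% of its stromal cells. No barcode was a Cthrc1 Lrrc15 cell in 2 libraries, and 46 of the 723 barcodes also occurred among kept barcodes of another Lin- library. Adrb1, the gene targeted in KO, was at 1.27 and 3.74 counts per 1e+06 in other stromal cells of WT RT and WT COLD and at 0.517 and 0.530 in those of KO RT and KO COLD, and at 0 in the Cthrc1 Lrrc15 cells of all 4. A single count in the Cthrc1 Lrrc15 cells was worth 1.78 and 3.68 per 1e+06 in WT RT and WT COLD and 21.3 and 13.1 in KO RT and KO COLD. A lower level of Adrb1 in these cells could therefore not be resolved. Whether the sequenced 3' end lies in the deleted part was not given in the sources used here. Among the 723 cells, 22 (3.04%) were in the 6% of cells with the highest doublet scores of their libraries, and 20 of these came from CL 1.

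Cthrc1 Lrrc15 cells came largely from 1 library. CL 1 held 550 of them, or 76.1%. They made up 11.3% of its 4852 stromal cells (95% exact binomial interval 10.5 to 12.3%). CL 2 held 37 of 5173 stromal cells, or 0.715% (0.504 to 0.985%), so these 2 pools of the same group did not overlap in their intervals, which cover counting error only.

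The untreated and cold C57 libraries held very few. RT 1 had 1 of 3429 stromal cells (0.0292%, interval 0.000738 to 0.162%) and RT 2 had 0 of 2341, which allows a share of up to 0.128%. COLD 1 had 1 of 5770 (0.0173%) and COLD 2 had 8 of 4569 (0.175%, interval 0.0756 to 0.345%). Both CL libraries were thus above all 4 of these libraries.

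In the Adrb1 line the order differed, since the highest share was at room temperature. WT RT held 81 of 3656 stromal cells, or 2.22% (interval 1.76 to 2.75%). WT COLD held 28 of 4509 (0.621%, 0.413 to 0.896%), KO RT 6 of 1513 (0.397%, 0.146 to 0.861%) and KO COLD 11 of 2799 (0.393%, 0.196 to 0.702%). The interval of WT RT lay above those of the other 3 libraries, whose intervals overlapped with each other. With 1 pool per group these values have no replicate check.

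**Figure D1:**
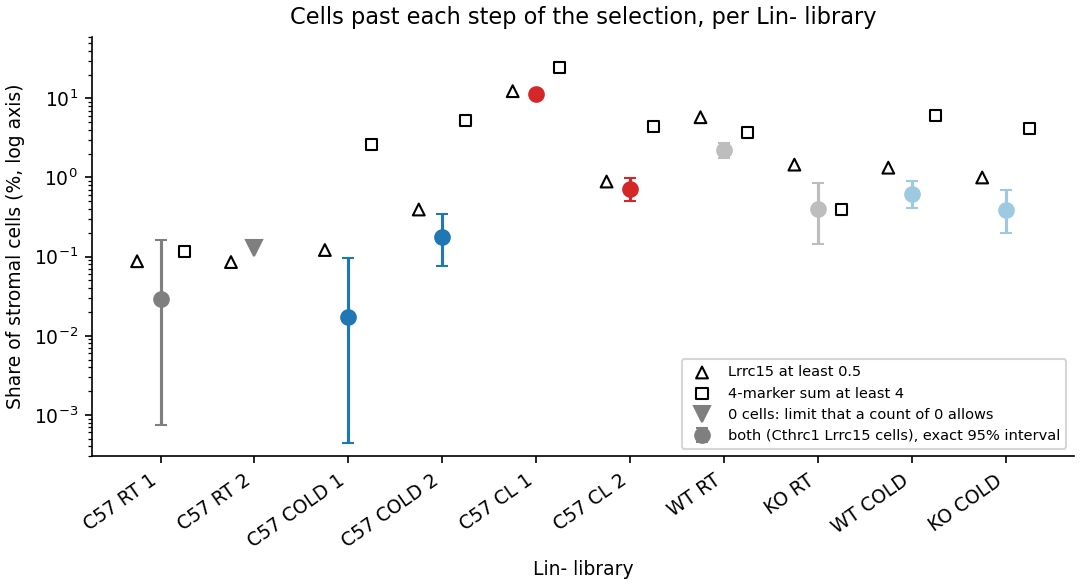
Share of stromal cells (%, log y axis) in each of the 10 Lin- libraries (x axis) that had Lrrc15 (open triangles), reached the marker sum (open squares, not drawn for RT 2, where it was 0) or did both (filled circles, the Cthrc1 Lrrc15 cells, with exact binomial 95% intervals; for RT 2 a downward triangle marks the limit that a count of 0 allows). The filled circle of CL 1 stands at 11.3%, that of WT RT at 2.22%, and those of the others under 1%.

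Over libraries, the share was 6.03% ± 7.51 (SD, n = 2) in CL and 0.0146% ± 0.0206 (SD, n = 2) in RT, a difference of 6.01 percentage points (exact permutation test, two-sided, p = 0.333, the smallest that 2 against 2 allows). Without CL 1 the difference was 0.701 points. COLD, at 0.0962% ± 0.112 (SD, n = 2), differed from RT by 0.0816 points (exact permutation p = 0.667) and CL from COLD by 5.93 points (exact permutation p = 0.333). With the Adrb1 line included, cold libraries had a share of 0.302% ± 0.263 (SD, n = 4) and RT libraries 0.660% ± 1.05 (SD, n = 4), a difference of -0.359 points (exact permutation p = 0.8). The difference was 0.0816 within C57 and -0.799 within the Adrb1 line, so its sign was not shared between the 2 sets. None of these comparisons passed a threshold of 0.05, which 2 libraries against 2 cannot do.

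Cells past the gate were deeper than their neighbours. The median total in Cthrc1 Lrrc15 cells and other stromal cells was 3789 and 1911 counts in CL 1, 10234 and 4037 in CL 2, 6732 and 3394 in WT RT, 10224 and 3879 in WT COLD, and 6656 and 4258 in KO COLD. The gate asks for a number of counts, and so more of the deeper cells can pass it. Kept cells also had to have a total under 15000. The deepest Cthrc1 Lrrc15 cells had 12255 counts in CL 1, 14786 in CL 2, 14420 in WT RT, 14983 in WT COLD and 13321 in KO COLD. How many such cells this limit left out was not counted. Each cell of at least 1500 counts was then thinned to 1500 counts, and cells with fewer were left out. After this, 243 of 3569 stromal cells of CL 1 (6.81%), 5 of 4683 of CL 2 (0.107%) and 5 of 3293 of WT RT (0.152%) still passed. So did 1 cell each in WT COLD and KO COLD, and none in the other 5 libraries. CL 1 remained the highest, while the gap between CL 2 and WT RT was lost.

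The gate was also applied to endothelial cells, which should not pass it, and to stromal cells of the Lin+ libraries. Of 5465 endothelial cells of the Lin- libraries, 0 had the marker counts, which allows a share of up to 0.0549%. In the Lin+ libraries, which the rule did not use, 4 of 460 stromal cells passed: 2 of 16 in CL 1, 1 of 250 in CL 2 and 1 of 24 in COLD 1.

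The Lrrc15 and the marker-sum requirements selected different cells in different libraries. Lrrc15 alone was present in 12.3% of stromal cells in CL 1 (598 cells), 5.77% in WT RT (211 cells), 1.45% in KO RT, 1.33% in WT COLD, 1.00% in KO COLD and 0.889% in CL 2, and in 0.0854 to 0.394% of those of C57 RT and COLD. The marker sum alone was reached by 24.8% of stromal cells in CL 1, 4.45% in CL 2, 2.60 and 5.30% in COLD, 6.03% in WT COLD, 4.22% in KO COLD and 3.75% in WT RT, but by 0.117% and 0% in C57 RT and 0.397% in KO RT. In both C57 and the Adrb1 line, then, cold libraries held more stromal cells with high marker sums than their RT libraries, most of them without Lrrc15.

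Near the limits, 11 Lrrc15-bearing stromal cells of CL 1 and 19 of WT RT had a marker sum between 3 and 4 and stayed outside, while 20 and 17 cells with a sum between 4 and 5 were inside. In CL 1, 391 of 550 cells had a sum of at least 10, against 20 of 81 in WT RT. The median marker sum was 14.1 counts in CL 1 (range 4.06 to 60.9), 19.6 in CL 2 (4.80 to 59.6), 6.97 in WT RT (4.93 to 29.9), 8.44 in WT COLD (5.00 to 29.5) and 7.73 in KO COLD (4.85 to 15.6). The CL cells were therefore far inside the gate and many WT RT cells close to its edge.

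Cthrc1 carried the marker sum in CL, and Lrrc15 took a larger part elsewhere. Of the counts of the 4 markers, Cthrc1 gave 79.6% in CL 1 and 87.4% in CL 2, 59.8% in WT COLD, 54.3% in KO COLD and 35.2% in WT RT. Lrrc15 gave 12.4, 9.72, 31.8, 40.5 and 44.9% in the same order. Fbn2 reached 19.97% in WT RT, where 60.5% of the cells had it, and 2.85 to 3.46% in the other 4 libraries.

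Crabp1 did not follow the label. It was found in 108 of the 550 cells of CL 1 (19.6%), in 17.9% of WT COLD and 9.09% of KO COLD cells, and in 0 of the 37 cells of CL 2 and 0 of the 81 of WT RT. Cthrc1 was present in all cells of both CL libraries, in 86.4% of WT RT, 89.3% of WT COLD and 72.7% of KO COLD cells. The cells are therefore named here by Cthrc1 and Lrrc15 alone.

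**Figure D2:**
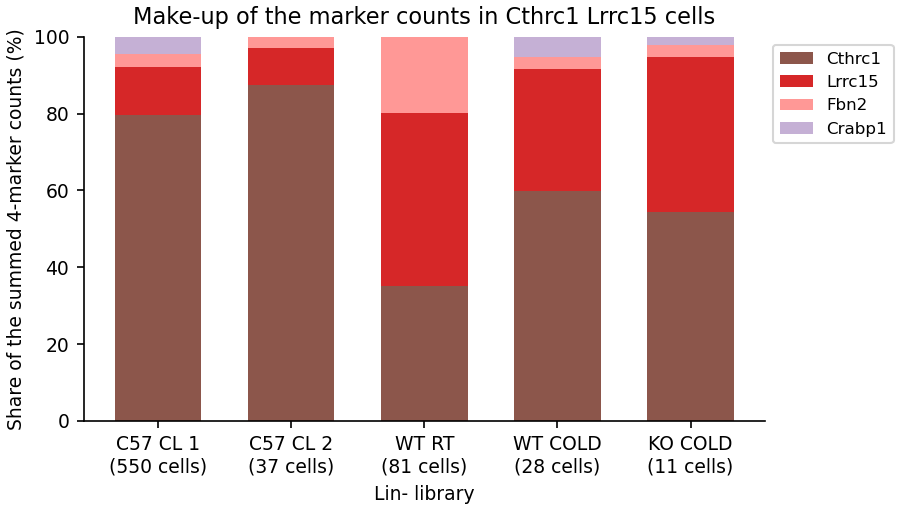
Make-up of the summed counts of the 4 markers (%, y axis) in Cthrc1 Lrrc15 cells of the 5 libraries with at least 10 such cells (x axis). Cthrc1 takes 79.6 and 87.4% in the CL libraries and 35.2% in WT RT, where Fbn2 takes 19.97% and Crabp1 none.

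A larger share of the Lrrc15 counts than of the Cthrc1 counts lay in these cells, as the rule fixed in part. They held 95.6% of the Lrrc15 counts of all stromal cells in CL 1, 88.2% in CL 2, 74.5% in WT COLD, 64.2% in WT RT and 60.4% in KO COLD. Of Cthrc1 they held 47.98% in CL 1, 33.2% in WT RT, 16.9% in CL 2, 6.17% in WT COLD and 3.29% in KO COLD. Summed over all stromal cells, Cthrc1 stood at 11.6 and 28.3 CPM (counts scaled to a common library total of 1e+06) in C57 RT, 146 and 149 in COLD, and 1267 and 179 in CL, against 11.6 to 27.4 CPM in endothelial cells of the same libraries. Cthrc1 in both RT libraries was at this endothelial level, and in COLD and CL above it. Lrrc15 stood at 0.623 and 0.546 CPM in RT, 0.366 and 1.15 in COLD, and 99.4 and 3.82 in CL, so the COLD libraries stood above RT in Cthrc1 and were near RT in Lrrc15.

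Gene levels were next compared between Cthrc1 Lrrc15 cells and other stromal cells of the same library, in the 5 libraries with at least 10 such cells (CL 1, CL 2, WT RT, WT COLD and KO COLD, the order of all lists of 5 values that follow). Counts were summed per class and divided by the total, giving CPM, and log2 ratios were taken after adding 0.5 CPM. The rule made this contrast, so the values are a description and carry no test. Of 7039 genes with at least 20 CPM, 574 (8.15%) were higher in all 5 libraries and 994 (14.1%) lower in all 5, and the median gene differed by -0.06. The summed depth ranged from 2.23e+06 counts in CL 1 to 76098 in KO COLD, where a single count was worth 13.1 CPM and 11 cells set every value.

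In order, the 20 genes outside the rule with the highest median ratio were Crabp2, S100a4, Colec10, AA467197, Anxa8, Adamts19, Cd80, Col8a1, Tes, Ociad2, Slc16a3, F2r, Gap43, Cd109, Lgals3, Mcub, P4ha3, Sfrp4, Wnt2 and Nr4a2, with median log2 ratios from 4.28 to 2.18. These genes were picked because their ratio was above 0 in all 5 libraries, with a mean of at least 20 CPM in either class. Some were low in single libraries. In CL 1, Anxa8 was at 3.11 against 2.73 CPM and Colec10 at 4.01 against 2.73 CPM.

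S100a4, a calcium-binding protein widely used as a fibroblast marker, was at 259, 1083, 215, 946 and 1460 CPM in Cthrc1 Lrrc15 cells and at 88.9, 54.1, 34.4, 68.3 and 66.0 in other stromal cells, without overlap between the classes. Lgals3, a galectin, was at 363, 728, 326, 721 and 1363 against 158, 118, 96.3, 134 and 154 CPM. Mcub, a subunit that dampens the mitochondrial calcium uniporter, was at 280, 269, 102, 217 and 189 against 104, 33.7, 25.9, 36.6 and 35.2 CPM. The lowest Cthrc1 Lrrc15 value of S100a4 and Lgals3 was above every value of other stromal cells, but Mcub in WT RT lay just below CL 1 other cells.

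Col8a1, a short-chain collagen of remodelling tissue, was at 94.3, 145, 112, 316 and 229 against 29.7, 18.5, 14.2, 31.8 and 33.4 CPM. P4ha3, a prolyl hydroxylase needed for stable collagen, was at 90.4, 81.4, 93.9, 64.8 and 39.0 against 24.7, 5.77, 18.2, 9.49 and 8.18 CPM. Slc16a3, the lactate exporter MCT4, was at 138, 165, 32, 56.3 and 26 against 22.7, 6.11, 2.38, 16.6 and 8.52 CPM. Both Col8a1 and P4ha3 were separated between the classes over all 5 libraries, and Slc16a3 was highest in CL.

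Some of the 20 owed their rank to the Adrb1 line. Sfrp4, a secreted Wnt antagonist, was at 274, 389, 2197, 3151 and 6455 CPM in Cthrc1 Lrrc15 cells and at 263, 370, 473, 172 and 236 in other stromal cells, so in CL the classes were nearly level. Wnt2, a Wnt ligand, was at 98.4, 164, 387, 376 and 388 against 40.3, 36.8, 84.4, 21.4 and 29.9 CPM. Crabp2, another retinoic acid binding protein, was at 148 CPM in WT COLD and 472 CPM in KO COLD but at 4.04, 19.1 and 1.77 CPM in CL 1, CL 2 and WT RT. In 3 libraries Crabp2 was thus low even in Cthrc1 Lrrc15 cells.

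**Figure D3:**
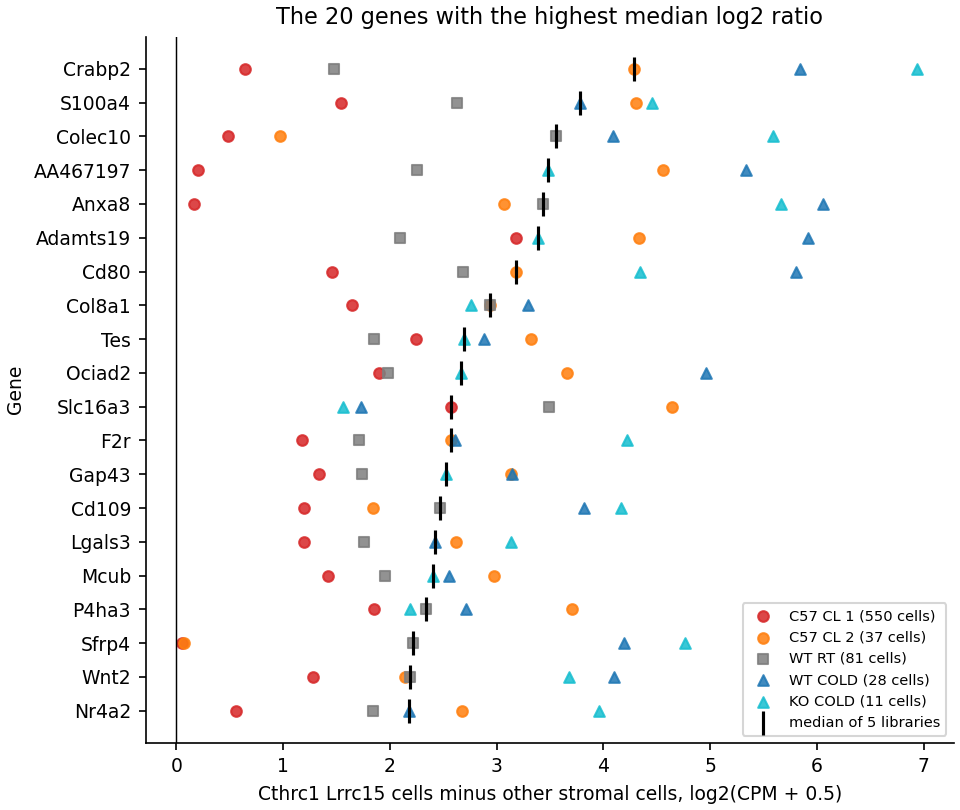
Log2 ratio of Cthrc1 Lrrc15 cells to other stromal cells (x axis, on CPM plus 0.5) for the 20 highest genes (y axis), with a point for each of 5 libraries and a vertical tick for their median. Every point is above 0 because this chose the genes, Sfrp4 is close to 0 in both CL libraries, and Crabp2 is highest in KO COLD.

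The 10 lowest genes were Cxcl13, Car3, Fabp4, Apoe, Ptgir, Adamtsl3, AW112010, Ces1d, Epha3 and Myoc. Apoe, the lipid carrier apolipoprotein E, was at 37.0, 18.2, 7.41, 203 and 37.0 CPM against 1329, 1659, 1160, 1048 and 1214 CPM in other stromal cells. Cxcl13, a B cell chemokine, was at 14.8, 5.03, 14.1, 0 and 0 against 638, 690, 87.2, 881 and 945 CPM. Car3 and Fabp4 are adipocyte genes that the authors used to estimate the cell-free RNA they subtracted, and their levels depend on that step.

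Since the gate takes deeper cells, presence was also compared after thinning to 1500 counts, which left out cells with fewer counts. In CL 1 these were 6 of 550 Cthrc1 Lrrc15 cells, 1010 of 4302 other stromal cells and 754 of 1360 endothelial cells. The classes compared were therefore their deeper part. In CL 1, Postn was present in 79.8% of Cthrc1 Lrrc15 cells, 45.0% of other stromal cells and 5.78% of endothelial cells. For Acta2 these shares were 41.0, 8.26 and 5.12%, for S100a4 25.6, 8.11 and 1.82%, and for Mcub 34.0, 11.8 and 1.32%. Pi16 went the other way, with 8.64, 35.7 and 1.49%. Between Cthrc1 Lrrc15 and other stromal cells the direction was the same in the other 4 libraries for Postn, S100a4, Mcub and Pi16, but for Acta2 the shares in WT RT were 1.23% of Cthrc1 Lrrc15 and 3.54% of other stromal cells. Endothelial shares for S100a4 were higher in those libraries, at 12.96, 9.29, 10.2 and 16.9% in CL 2, WT RT, WT COLD and KO COLD. Other stromal cells there had 6.21, 3.76, 6.30 and 5.25%. Whether an endothelial share reflects free RNA or expression by endothelial cells was not tested, so it is not read as a background level. Mcub in other stromal cells of WT RT was below the endothelial share (3.24 against 4.29%), as was Pi16 in Cthrc1 Lrrc15 cells of WT COLD (0 against 2.87%). So was Acta2 in Cthrc1 Lrrc15 cells of CL 2 (13.9 against 24.7%), WT RT (1.23 against 20.4%) and WT COLD (7.41 against 10.2%). Among the 20, Col8a1 in Cthrc1 Lrrc15 cells was below the endothelial share in each library, at 10.8, 16.7, 12.3, 14.8 and 27.3% against 12.9, 22.2, 29.6, 24.2 and 30.8%. In CL 1 so were AA467197 (2.57 against 14.5%), Tes (6.80 against 8.09%), F2r (2.57 against 6.27%) and Nr4a2 (3.86 against 9.90%). P4ha3, at 14.3 and 3.10% in CL 1, was found in 0 of 27 thinned Cthrc1 Lrrc15 cells of WT COLD and 0 of 11 of KO COLD, against 1.35 and 0.966% of other stromal cells. Of the other genes among the 20, Colec10 was also at 0 after thinning in CL 2, WT COLD and KO COLD, and Anxa8, Adamts19, Tes and Slc16a3 in KO COLD. Crabp2 was found in 0.551% of the Cthrc1 Lrrc15 cells of CL 1, close to the 0.165% of endothelial cells.

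The markers that the study used for its adipose stromal cell subtypes went both ways. Of the ASC1 markers, Cxcl14, a chemokine, was at 23.9, 37.0, 0, 322 and 323 CPM against 384, 514, 189, 1173 and 959 CPM, and Bmper, a BMP-binding protein, at 62.5, 26, 3.53, 14.4 and 3.96 against 190, 120, 42.6, 163 and 148 CPM. Col5a3, the third, was at 644, 630, 1325, 353 and 290 against 470, 382, 793, 276 and 304 CPM and so was not lower in 4 of 5. Of the ASC2 markers, Pi16, a peptidase inhibitor, was at 154, 223, 202, 4.18 and 266 against 1882, 2914, 1337, 1175 and 1747 CPM. Fbn1, fibrillin-1, was higher in all 5, at 1219, 1841, 3937, 1960 and 1504 against 1133, 1124, 1814, 412 and 447 CPM. Dpp4, a surface peptidase, was at 136, 157, 550, 99.7 and 245 against 145, 157, 369, 66.2 and 96.1 CPM, so that the ASC2 list had a median of 0.58. Of the ASC3 markers, Fbln1, fibulin-1, was lower in all 5, at 98.2, 102, 23.5, 59.3 and 186 against 193, 274, 407, 269 and 383 CPM. Gdf10 and Clec11a, the other ASC3 markers, were not on the same side in all 5. The median of the ASC3 list was -1.42, but 0.03 in KO COLD. The cells therefore matched none of the 3 subtypes in full.

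Collagens split by type. Of 16 measured, 6 were higher in all 5 libraries (Col1a2, Col5a1, Col5a2, Col8a1, Col12a1 and Col16a1) and 4 lower in all 5 (Col4a1, Col4a2, Col6a3 and Col15a1), beside 8.15% and 14.1% of all genes, and the list's median ratio was 0.39, though it was -0.20 within CL 1 and 0.07 within CL 2. The lower ones included the network collagen IV of basement membranes. Col4a1 was at 53.8, 78.8, 62.7, 657 and 766 against 845, 1013, 775, 1579 and 1488 CPM.

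Of 26 matrix glycoproteins and proteoglycans, 10 were higher in all 5 (Fn1, Postn, Sparc, Fbn1, Bgn, Aspn, Thbs2, Vcan, Mfap5 and Spon2) and 1, Fbln5, lower. The median was 0.44, and over all genes 8.15% were higher and 14.1% lower in all 5. Postn, periostin, a matrix protein of remodelling tissue, was at 1801, 1829, 9346, 1242 and 2852 against 703, 464, 2523, 430 and 432 CPM. Spon2 was at 260, 196, 108, 659 and 477 against 105, 55.0, 64.6, 79.9 and 87.5 CPM, and Thbs2, thrombospondin-2, at 641, 183, 257, 472 and 355 against 236, 120, 113, 84.9 and 86.6 CPM. WT RT stood out in level, for both classes held their highest Postn there.

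Of 18 genes of collagen processing and crosslinking, 7 were higher in all 5 (Lox, Loxl2, Plod2, Plod3, P4ha2, P4ha3 and Fkbp10) and 1, Pcolce, lower. The median was 0.51, and over all genes 8.15% were higher and 14.1% lower in all 5. Loxl2, which crosslinks collagen, was at 935, 796, 879, 684 and 421 against 335, 205, 312, 216 and 207 CPM. Pcolce, an enhancer of procollagen cleavage, was at 1014, 611, 216, 654 and 1324 against 3086, 2498, 759, 1953 and 2394 CPM. Of 18 matrix proteases and inhibitors, 1 (Mmp14) was higher in all 5 and 4 (Timp3, Adamts5, Adamts12 and Plau) lower, with a median of -0.33. Beside the 8.15% and 14.1% of all genes, nothing is read from the protease counts.

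Contractile and cytoskeletal genes had a median above 0 in each library, but the classic myofibroblast genes differed by library. Of 13 measured, 5 were higher in all 5 (Tpm1, Cnn2, Flna, Vcl and Myh9), 0 lower, with a median of 0.89. Over all genes, 8.15% were higher and 14.1% lower in all 5. Acta2, smooth muscle actin, used to define myofibroblasts, was at 775, 130, 3.17, 195 and 654 against 168, 51.7, 122, 161 and 98.0 CPM, so that it was near 0 in WT RT. Tagln and Myl9, of the same contractile set, were at 92.1, 10.6, 1.06, 175 and 7.81 CPM and at 87.9, 40.3, 10.2, 7.07 and 71.2 CPM, lower than in other stromal cells in 3 and 4 of the 5 libraries.

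Of 17 TGF-beta pathway genes, 1 (Fstl1) was higher in all 5 and 4 (Ltbp3, Ltbp4, Fst and Eng) lower, with a median of -0.14. Of 10 Wnt ligands and modulators, 4 were higher (Wnt2, Sfrp2, Sfrp4 and Dkk3) and 3 lower (Wnt5a, Sfrp1 and Rspo3). Of 9 retinoid genes, 1 was higher (Crabp2) and 3 lower (Rbp4, Aldh1a1 and Rarres2). Over all genes measured, 8.15% were higher and 14.1% lower in all 5, so the higher counts of the TGF-beta and retinoid lists were near the background.

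Adipogenic genes were mostly lower. Of 12 measured, 0 were higher in all 5 and 9 lower (Pparg, Cebpa, Cebpb, Lpl, Nnat, Adipoq, Plin2, Cd36 and Ucp1). The median was -1.84, and over all genes 8.15% were higher and 14.1% lower in all 5. Adipoq was at 0 against 0.317 CPM in WT RT and 0 against 7.65 CPM in KO COLD. A single count was worth 1.78 and 13.1 CPM there, so a lower level of Adipoq could not be resolved in these libraries. Lpl, lipoprotein lipase, was at 56.9, 102, 647, 738 and 1552 against 1828, 1512, 1191, 2853 and 2647 CPM, and Pparg, the master regulator of adipocytes, at 18.8, 11.4, 13.8, 12.0 and 56.8 against 68.9, 45.9, 27.4, 62.8 and 66.1 CPM. Dlk1, an inhibitor of adipogenesis, was at 83.5, 73.0, 1.78, 0 and 39.4 against 19.3, 13.9, 6.75, 5.25 and 9.17 CPM.

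Acute phase and inflammatory genes were lower as well: of 19 measured, 0 were higher in all 5 and 11 lower (Saa3, Hp, Lcn2, Il6, Il33, Ccl11, Cxcl9, Cxcl10, Cxcl12, Cxcl13 and C3). The median was -1.37, and over all genes 8.15% were higher and 14.1% lower in all 5. C3, complement component 3, was at 63.9, 139, 247, 177 and 29.8 against 1692, 2110, 2539, 801 and 1114 CPM. Il1rl1, the IL-33 receptor, was at 156, 78.2, 8.82, 153 and 0 against 23.0, 2.82, 2.54, 1.13 and 3.24 CPM. Of 20 interferon genes, 1 was higher in all 5 (Usp18) and 1 lower (Gbp2), with a median of -0.01, and of 11 sterol synthesis genes 0 were either, with a median of 0.03. Neither list exceeded the shares over all genes. None of 15 cell cycle genes was on the same side in all 5, since their median was 1.15 in CL 1 and 2.07 in CL 2 but -1.28 in WT RT.

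**Figure D4:**
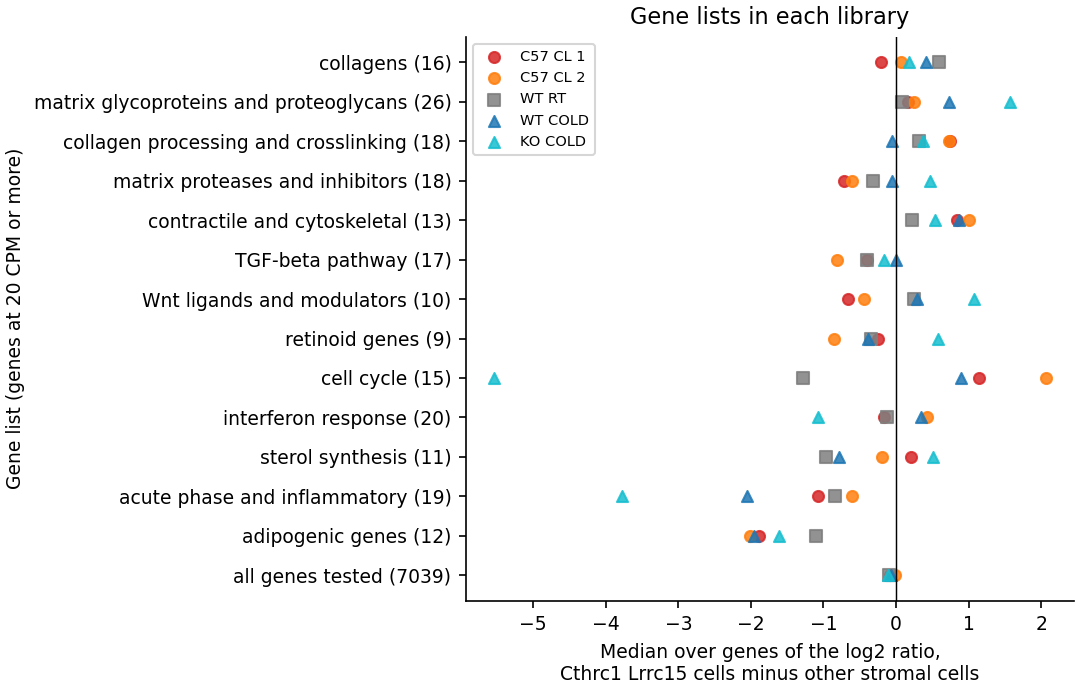
Median over the genes of each list (y axis, number measured in brackets) of the log2 ratio of Cthrc1 Lrrc15 cells to other stromal cells (x axis), with a point for each of 5 libraries. Adipogenic and inflammatory lists lie below 0 and the contractile list above 0 in all 5, and the cell cycle list runs from -5.54 in KO COLD, where many of its genes were at 0, to 2.07 in CL 2.

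Summed levels of marker genes of other cell types differed by list and library. The 6 smooth muscle genes summed to 876, 141, 5.93, 392 and 673 CPM in Cthrc1 Lrrc15 cells of CL 1, CL 2, WT RT, WT COLD and KO COLD, against 252, 114, 271, 329 and 209 CPM in other stromal cells, and in CL 1 Acta2 and Tagln made up most of the sum. Erythroid genes summed to 337 CPM in CL 1 against 183 CPM in other stromal cells, and to at most 5.97 CPM in the other 4 libraries, lower there than in other stromal cells. Tendon genes summed to 35.4, 153, 312, 73.3 and 312 against 47.5, 64.2, 79.5, 44.7 and 66.8 CPM, with Thbs4 at 312 CPM in WT RT and 300 CPM in KO COLD. These lists were thus higher in Cthrc1 Lrrc15 cells in 4, 1 and 4 of the 5 libraries. The 8 immune genes summed to 4.77 to 74.8 CPM and were higher than in other stromal cells in CL 1 (74.8 against 45.6), and the 6 pericyte genes summed to 18.8 to 148 CPM and were higher in KO COLD (148 against 89.0). The 6 endothelial genes summed to 0 to 49.9 CPM and were higher in WT COLD (45.9 against 37.6). Schwann cell genes, at 13.7 to 70.6 CPM, were lower than in other stromal cells in all 5 libraries. The 6 epithelial genes summed to 0 to 2.76 CPM. Their part in the differences was not tested.

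Cells that reached the marker sum without Lrrc15 are called neighbours here, by the rule and not by a measure of likeness. There were 653 in CL 1, 193 in CL 2, 56 in WT RT, 244 in WT COLD and 107 in KO COLD, and they had Cthrc1 at 2907, 1562, 329, 696 and 671 CPM against 3097, 1830, 454, 704 and 668 CPM in Cthrc1 Lrrc15 cells. Of the 20 highest genes, 11 (55%) were higher in Cthrc1 Lrrc15 cells than in these neighbours in all 5 libraries, against 307 of 7039 genes (4.36%). The 20 were chosen for high levels in these same cells over stromal cells that include the neighbours, so the choice fixes part of this excess and nothing is read from it. S100a4 was among them, at 183, 112, 12.6, 66.2 and 74.3 CPM in the neighbours. The gap was smallest in CL 1, where Crabp2, Colec10, AA467197, Anxa8, Sfrp4 and Nr4a2 were not higher.

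Proliferation was then counted as cells with at least 3 counts over 20 cell cycle genes after thinning to 1500, among cells of at least 1500 counts. In CL 1, 143 of 544 Cthrc1 Lrrc15 cells were cycling, or 26.3% (interval 22.6 to 30.2%), against 8.32% of other stromal cells and 10.1% of endothelial cells. In WT COLD, 7 of 27 were cycling (25.9%, 11.1 to 46.3%) against 8.68% of other stromal cells, and in CL 2, 3 of 36 (8.33%, 1.75 to 22.5%) against 1.17%. WT RT had 0 of 81, which allows up to 3.70%, against 0.515%, and KO COLD 0 of 11, which allows up to 27.3%, against 4.56%. Cycling cells were more frequent than among other stromal cells in 3 libraries, and the depth and number of cells in the other 2 could not show a difference. The gate takes deeper cells, and cycling Cthrc1 Lrrc15 cells of CL 1 were deeper than the rest (median 4489 and 3562 counts). Thinning after the gate does not undo this choice, and its part in the excess was not tested. Without thinning the shares were 33.6% in CL 1, 27.0% in CL 2 and 32.1% in WT COLD.

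**Figure D5:**
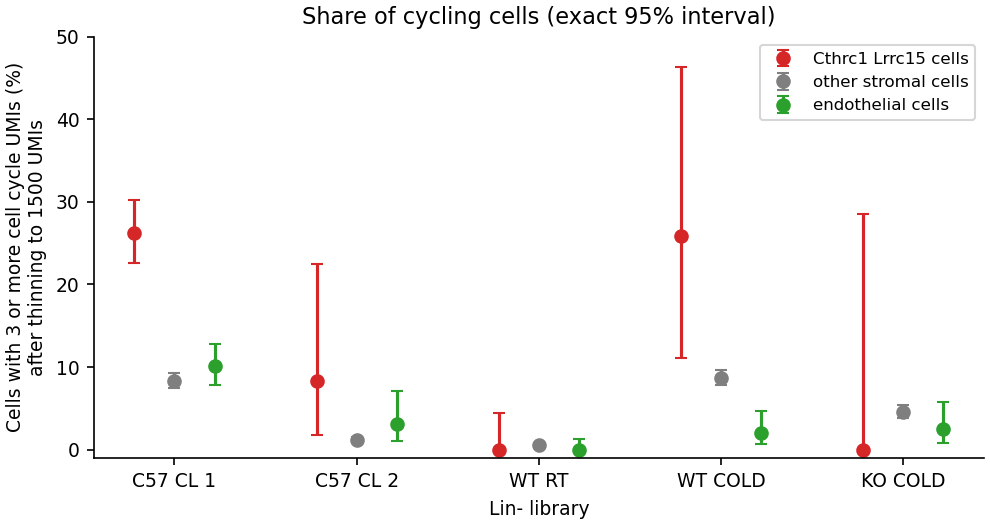
Share of cells with at least 3 cell cycle counts after thinning to 1500 (%, y axis) among Cthrc1 Lrrc15, other stromal and endothelial cells of 5 libraries (x axis), with exact binomial 95% intervals. The share among Cthrc1 Lrrc15 cells is 26.3% in CL 1 and 25.9% in WT COLD, and 0 in WT RT and KO COLD.

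Within CL 1 the 185 cycling and 365 other Cthrc1 Lrrc15 cells, called without thinning, differed in other genes too. Genes here were chosen after their values were seen, and both sets come from 1 library, so there is no test. Acta2 was at 1014 CPM in cycling and 624 CPM in other cells, Tpm2 at 837 and 462, S100a4 at 378 and 184, Crabp1 at 256 and 121, Cxcl5 at 335 and 169 and Barx2 at 127 and 45.4. Cthrc1 went the other way, at 2580 and 3425 CPM, as did Postn, at 1258 and 2145, and Pi16, at 79.3 and 202. The median total was 4489 counts in cycling and 3562 in other cells.

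The other stromal cells, those that the rule left over, were compared between treatments in the 6 C57 libraries with edgeR's quasi-likelihood test. CL against RT called 19 of 14109 genes higher (0.135%) and 42 lower (0.298%) at an adjusted p below 0.05, and 0 of the 20 highest genes were among them. At an unadjusted p below 0.05, 1959 genes and 11 of the 20 passed, and 19 of the 20 were above 0, with a median log2 change of 0.89 against 0.00 over all genes. P4ha3 had a log2 change of 3.49 ± 0.73 (SE, edgeR adjusted p = 0.114), Slc16a3 2.22 ± 0.56 (adjusted p = 0.166) and Mcub 1.74 ± 0.40 (adjusted p = 0.134). The values of the 20 are not independent of the choice, since the genes were picked with CL 1 and CL 2 among the libraries, and the other stromal cells still held marker-rich cells without Lrrc15, 653 and 193 in CL 1 and CL 2 against 3 and 0 in RT. Leaving out CL 2 called 5 of the 20 and DESeq2 called 4. With the replicate experiment as a block, 281 genes were called in place of 61, and again 0 of the 20 higher, while without RT 1 or RT 2 0 genes were called by edgeR.

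COLD against RT, which shares its RT libraries with the first contrast, called 707 genes higher (5.01%) and 562 lower (3.98%). Of the 20, 0 were called higher and 2 lower, Gap43 with a log2 change of -2.37 ± 0.57 and Wnt2 of -1.19 ± 0.29 (edgeR adjusted p = 0.047 each). The median of the 20 was -0.23 and that of all genes -0.03, and 9 of 20 were above 0. With the replicate experiment as a block, 2436 genes were called in place of 1269, and with any 1 library left out 0 to 158.

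A last comparison asked whether Cthrc1 Lrrc15 cells of CL differed from those of the Adrb1 line in their ratio to other stromal cells of their own library. An edgeR term for class by set was tested over the 2 CL and 3 Adrb1 line libraries. Strain, sex, tamoxifen, treatment and, for WT RT, kit cannot be told apart in it. The 3 libraries of the Adrb1 line served as replicates though they differ in treatment, genotype or kit. The p-values of this term therefore do not measure the spread between like pools. Of 13136 genes, 97 (0.738%) had a higher ratio in CL and 115 (0.875%) a higher ratio in the Adrb1 line, 1248 passing unadjusted. Of the 20 highest genes, 7 had a higher ratio in the Adrb1 line and 0 in CL, a count that the choice of the genes fixes in part, since they were ranked by the median over 5 libraries of which 3 were of the Adrb1 line. When each library in turn was left out, 5 of the 97 and 12 of the 115 were called each time.

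On the CL side, called genes included contractile, cell cycle, inflammatory and erythroid genes. Of 20 acute phase and inflammatory genes, 4 had a higher ratio in CL and 1 in the line. Of 15 contractile genes tested, 5 (Acta2, Actn1, Myl9, Tagln2 and Tpm2) had a higher ratio in CL and 0 in the line, and so had 5 of 20 cell cycle genes (Birc5, Ccnb2, Cdca3, Cdk1 and Cenpa). So had 4 of 5 erythroid genes (Hba-a1, Hba-a2, Hbb-bs and Hbb-bt), whose calls rest on CL 1. Without CL 1 none of the 4 was called (adjusted p = 0.885 for Hba-a1 and 1 for the other 3), and in CL 2 the erythroid sum was 1.92 CPM in Cthrc1 Lrrc15 cells and 9.78 CPM in other stromal cells. The 5 calls on this side that held with each library left out were Birc5, Ndufa4l2, Pclaf, Plac8 and Tk1, with no gene of the contractile or inflammatory lists among them. Acta2 differed by 1.72 ± 0.39 (SE, edgeR adjusted p = 0.0022), but by 0.51 without WT RT (adjusted p = 0.703) and 1.15 without CL 1 (adjusted p = 0.931), and DESeq2 did not call it (adjusted p = 0.779). Its log2 ratio in KO COLD, 2.73, was above those of CL 1 and CL 2, 2.20 and 1.32. Tpm2 differed by 1.5 ± 0.37 (adjusted p = 0.0069), was not called without CL 1, CL 2 or WT RT (1.15, 1.73 and 0.92), and DESeq2 did not call it (adjusted p = 0.234). Birc5, a mitotic survival factor, differed by 2.34 ± 0.41 (adjusted p = 8.2e-06), and by 0.81 with cycling cells left out (adjusted p = 0.972), at 248, 93.1, 1.77, 110 and 0 against 92.5, 17.3, 4.84, 110 and 51.5 CPM. Timp1, an inhibitor of metalloproteases, differed by 2.18 ± 0.41 (adjusted p = 3.4e-05) and Ldha, lactate dehydrogenase A, by 1.94 ± 0.39 (adjusted p = 0.00019). Timp1 was not called without CL 2 (1.46), nor Ldha without CL 1 or CL 2 (2.16 and 1.68). Timp1 stood at 1865, 1185, 93.7, 1470 and 725 against 681, 143, 76.6, 1252 and 757 CPM, so that the classes were nearly level in the Adrb1 line. Ldha, which is in no gene list, was chosen after its values were seen.

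On the other side, 4 of 13 Wnt genes (Dkk2, Rspo1, Sfrp4 and Wnt2), 3 of 18 collagens (Col4a1, Col15a1 and Col18a1) and 3 of 21 TGF-beta genes (Ltbp1, Ltbp2 and Tgfb2) had a higher ratio in the Adrb1 line, and 0 genes of these lists in CL. Of the 12 calls on this side that held with each library left out, Sfrp4 was the only Wnt gene and 0 were collagens or TGF-beta genes of these lists. Sfrp4 differed by -3.59 ± 0.43 (edgeR adjusted p = 1.9e-13), Wnt2 by -1.52 ± 0.35 (adjusted p = 0.0022) and Eln, elastin, by -2.09 ± 0.41 (adjusted p = 8.6e-05). Lpl differed by -3.21 ± 0.44 (adjusted p = 5.2e-10), since its ratio was lowest in CL. Sfrp4 and Lpl were called in each of the 5 fits that left out a library. Wnt2 was not called without CL 1, CL 2 or WT COLD (-1.20, -1.87 and -1.05), nor Eln without CL 1 or KO COLD (-1.28 and -1.10), and DESeq2 called neither (adjusted p = 0.149 and 0.634).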

How the data were processed

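Stromal vascular cells of iBAT had been split with magnetic beads into Lin+ and Lin- fractions, and 1 Chromium 3' library was made of each. The deposited matrices hold expected counts: the authors counted UMIs with Cell Ranger 3.0.1 against mm10 and subtracted cell-free RNA with SoupX, taking Fabp4 and Car3 as genes these cells do not express, so 97.2 to 99.6% of the non-zero entries were not whole. The correction can set low genes to 0. The matrices list 31053 genes by symbol, were not scaled to a common total, and leave reads of overlapping genes unresolved.

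Cells were kept with less than 10% mitochondrial counts, a total under 15000 and at least 500 genes, which left 60538 of 89637 Lin- barcodes. The authors' cell annotation was not used here. Doublets were scored with Scrublet and not removed. The members and the gene lists were chosen with earlier results of these data known. The genes of the rule entered totals and were not tested. Counts were summed per library and class and rounded to whole numbers for edgeR 4.0.16 and DESeq2 1.42.0 (R 4.3.3, limma 3.58.1), with Benjamini-Hochberg adjustment and a threshold of 0.05. Descriptions used Python 3.11.15, numpy 2.4.6, scipy 1.17.1, pandas 2.3.3 and scanpy 1.11.5. Endothelial cells had a Pecam1 and Cdh5 sum of at least 2 and a stromal sum under 5. The replicate was the pool of 3 to 4 mice, so p-values of the C57 comparisons measure the spread between pools. In the class by set term and the shares over 4 experiments each, libraries of unlike groups served as replicates. Those p-values include differences between groups. Intervals are exact binomial at 95%, and a count of 0 allows up to 3 counts. Summed counts of the replicates of a C57 group differed beyond sampling noise (chi-square 50.8 to 74.1 per degree of freedom), so they were separate libraries.

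Genes named were those of the rule, the 20 highest and 10 lowest outside it by the median ratio among genes on the same side in all 5 libraries, up to 4 per list with the largest ratio, and the 5 largest of each sign in the class by set term. Names added to these complete a count or are said to have been chosen after their values were seen, except Adrb1, Timp1, Tnc and Eln. Adrb1 was named as the gene targeted in KO. Timp1, Tnc, Eln and Ldha were picked outside these rules and kept because the class by set term called them. Planned fits of treatment within Cthrc1 Lrrc15 cells, of class by treatment, and tests of their cycling share need at least 10 such cells in the libraries of each group. Only 2 C57 libraries, both CL, had them, so these and their alternatives could not be fitted. The fits of other stromal cells and of class by set, and the counts of genes on the same side in all libraries, were added after seeing the data. On simulated counts with 200 changed genes, 98.5% of 4-fold changes were recovered for other stromal cells in CL against RT (14026 genes) and 68.0% of 8-fold changes for the class by set term (12957 genes). The simulated libraries had a shared mean profile and a spread set in advance, not estimated from the data. These percentages therefore do not give the power of the real fits.

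The C57 replicate numbers mark a replicate experiment in the study's methods, so a fit with that number as a block was run beside each C57 fit without it. The deviations of same-numbered libraries correlated over 6698 genes by 0.166 for RT and COLD, -0.153 for RT and CL and 0.528 for COLD and CL. Alternatives were other limits, thinning, no filter, DESeq2, a replicate block, cycling cells left out, at least 30 cells and each library left out.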

Additional observations from a re-analysis of the deposited data

Results flagged for a closer look

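Among the 4 RT libraries, WT RT stood apart in the share of stromal cells past the marker sum, at 3.75% against 0 to 0.397% in the other 3. Its gap to the nearest was 0.894 of the range, above Dixon's 95% limit of 0.829, which chance passes in about 1 in 20 groups of like samples. It was 1 of 6 such comparisons, and the RT group's share of Cthrc1 Lrrc15 cells (0.821) and of stromal cells with Lrrc15 (0.759) and the 3 shares of the cold group were below the limit. The 4 RT libraries were not like samples, since they mixed male C57 with female Adrb1 line mice and differed in kit version. The marker sum is also part of the rule, so nothing is read from passing the limit.

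In the class by set term, 212 genes differed between CL and the Adrb1 line in their ratio of Cthrc1 Lrrc15 to other stromal cells (edgeR, adjusted p below 0.05). The largest on the CL side were Ccl5 (log2 12.14), Hbb-bs (11.82), Hba-a1 (10.63), Barx2 (9.99) and Ces1d (9.15), and on the other side mt-Atp6 (-10.17), mt-Nd4 (-9.89), mt-Co3 (-8.82), mt-Nd1 (-6.33) and mt-Co1 (-5.34). Without CL 1, Ccl5 (adjusted p = 0.908), Hbb-bs (1), Hba-a1 (0.885), Ces1d (0.931), mt-Atp6 (0.296), mt-Nd4 (0.749) and mt-Co3 (0.834) were not called, and Ces1d was called in 1 of the 5 fits that left out a library. Barx2 was not called without CL 2 (adjusted p = 0.518) or WT COLD (0.711), and mt-Nd1 and mt-Co1 were called in all 5. Ccl5 was lower in Cthrc1 Lrrc15 than in other stromal cells of CL 2, at 2.35 against 8.63 CPM, and Ces1d was lower in both CL libraries, at 19.9 against 50.4 and 6.93 against 48.6 CPM, and at 0 in the Adrb1 line. These genes had libraries at or near 0, so the fitted sizes depend on the prior count and are no bound. DESeq2 called mt-Co1 (adjusted p = 0.0254) but not mt-Nd1 (0.512), mt-Atp6 (0.812), mt-Nd4 (0.654) or mt-Co3 (0.976). Mitochondrial shares were low throughout, with the highest median per cell at 0.0869%, in other stromal cells of WT RT. The part of the cell-free RNA correction in the mitochondrial ratios was not tested. Barx2, a homeobox factor, was at 76.9 and 97.9 CPM in Cthrc1 Lrrc15 cells of CL 1 and CL 2 and at 0 in all 3 libraries of the Adrb1 line, against at most 10.2 CPM in other stromal cells. Hbb-bs, a globin, was at 226 CPM in CL 1 and 0 in the other 4. mt-Co1 was at 2.70, 2.80, 494, 68.6 and 928 CPM in CL 1, CL 2, WT RT, WT COLD and KO COLD, against 136, 139, 1134, 220 and 181 CPM in other stromal cells.

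Ratios are given here for Ldha and for some, not all, of the list members that were called. Those higher in CL were Acta2 (1.72), Tpm2 (1.5), Timp1 (2.18), Birc5 (2.34), Tnc (1.72) and Ldha (1.94). Those higher in the Adrb1 line were Sfrp4 (-3.59), Wnt2 (-1.52), Lpl (-3.21), Crabp2 (-3.86) and Eln (-2.09). Tnc was not called without CL 1 (adjusted p = 0.138), CL 2 (0.329) or WT COLD (0.198), nor by DESeq2 (0.123), and Crabp2 was not called without CL 1 (adjusted p = 1).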

How the results depend on the processing

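CL minus RT in the share of Cthrc1 Lrrc15 cells was positive under all alternatives, from 3.09 to 14.6 points under other settings and from 0.701 (without CL 1) to 11.3 (without CL 2) with a library left out. With the replicate block it was 6.01 (exact permutation p = 0.5), and no share comparison passed under it. CL minus COLD ran from 3.03 to 10.7 and, with a library left out, from 0.619 (without CL 1) to 11.2 (without CL 2). COLD minus RT was 0 after thinning, 3.89 when Lrrc15 was not required, and ran from 0.00275 (without COLD 2) to 0.161 (without COLD 1) with a library left out. Cold minus RT over 4 experiments each was 3.47 when Lrrc15 was not required (exact permutation p = 0.0571), 0.160 without WT RT and 0.0816 within C57, and with a library left out it ran from -0.579 to 0.160. The cause of these reversals was not tested. The sign turned without WT RT and, with WT RT kept, without the Lrrc15 requirement.

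Genes higher in all libraries numbered 574, or 701 to 945 with a library left out (945 without KO COLD), where fewer libraries had to share a side. Genes lower in all numbered 994, 3047 with no filter and 1143 to 1465 with a library left out. Genes called in other stromal cells for CL against RT numbered 61, and 466 with DESeq2, 1124 with no filter and 281 with the replicate block. They were 0 without RT 1 or RT 2 and up to 790 without CL 2. Of the 20 highest genes, 0 were called higher, and 4 with DESeq2, 12 with no filter, 0 with the replicate block and 0 to 5 with a library left out (5 without CL 2). For COLD against RT the count was 1269, and 1697 with DESeq2, 2879 with no filter, 2436 with the replicate block and 0 to 158 with a library left out, and none of the 20 was called higher in any of these. With a library left out, the group's lone library was assumed to vary like the others. The 212 genes of the class by set term were 69 with DESeq2, 124 without cycling cells and 50 to 286 with a library left out (50 without CL 1 and 66 without CL 2). Hbb-bs turned to -1.73 without cycling cells, mt-Co3 to 4.06 with at least 30 cells per library and to 3.68 without KO COLD (lowest -11.05, without WT RT), and Eln to 0.0592 with at least 30 cells. Acta2 ran from 0.51 to 3.01 and Crabp2 from -5.42 to -1.13 with a library left out. With at least 30 cells per library, which kept only WT RT of the Adrb1 line, Acta2 was at 6.91 and Crabp2 at -0.113.

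Depth limits the KO COLD values most, with 11 cells and 13.1 CPM per count, and C57 RT and COLD held 10 cells in all, too few for gene levels. Fits of treatment within Cthrc1 Lrrc15 cells and their alternatives were not run, because RT and COLD had too few cells.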
